A study of Homo sapiens with 6 samples.

Results

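The regions described here are 6392 stretches of chromatin marked by acetylated lysine 27 of histone H3 (H3K27ac) that lay deep inside protein-coding genes and were listed both in NC and in PKM2-KD cells. Each is a region of the H3K27ac PKM2-KD list on chromosomes 1 to 22, between 452 and 2499 bp wide, that overlapped by at least 1 bp an H3K27ac NC region of at least 224 bp, lay within the span of a protein-coding gene, and was more than 5 kb from every end of a protein-coding gene. They were 6392 of 208488 PKM2-KD regions on these chromosomes, of 28212 of these widths, and of 18990 of these widths that were shared with NC, out of 999395 regions in all 6 lists. The regions were chosen by measured values, namely the H3K27ac widths in both libraries and their overlap, so widths and heights of H3K27ac are given as a description, with no test. They are called deep intragenic regions below.

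CUT&Tag, in which a transposase tethered to an antibody cuts out the DNA near its target, was run on MDA-MB-231, an established triple-negative breast cancer cell line. NONO, an RNA- and DNA-binding protein, was mapped in NC cells (genotype WT in the labels) and in cells with NONO knockdown (NONO-KD). H3K27ac and H3T11ph (histone H3 phosphorylated at threonine 11, a mark that PKM2 is known to place) were mapped in NC cells and in cells with PKM2 knockdown (PKM2-KD), with the aim of relating H3T11ph to H3K27ac. Each of the 6 groups held 1 library, so no difference between conditions has a replicate check, and the labels do not say which knockdown reagent was used for CUT&Tag. The libraries pool many cells, so fewer cells carrying a mark and less of the mark per cell cannot be told apart. The lists carry no expression values, so neither the cell line nor the knockdowns were checked from them.

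H3K27ac is laid down by acetyltransferases such as p300 and CBP on nucleosomes beside active promoters and enhancers. Within a gene and far from its ends, the mark is known from enhancers in introns, which may act on the host gene or on another gene, and from internal start sites of shorter transcripts. AP-1, a dimer of FOS and JUN family proteins, is known to bind enhancers of mesenchymal-type breast cancer cells, often together with TEAD factors and their co-activators YAP and TAZ.

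A start site listed by RefSeq lay within 1 kb of 546 of the 6073 deep intragenic regions on chromosomes for which start sites were used here (all but chromosome 8), or 8.99% (95% Wilson interval 8.30 to 9.74). For 420 of them (6.92%, 6.30 to 7.58) it was a start of a protein-coding gene, that is, an internal start of the host, since every outer end was more than 5 kb away. The share with any start site was 6.53% among the shared regions between genes. The deep intragenic share was 2.46 percentage points higher (Newcombe interval 1.48 to 3.44). Regions between genes could not lie near a protein-coding start, by the way the classes were set, and 0 of 5328 did. The 2 shares therefore hold different kinds of start, and no conclusion is drawn from their difference. Of the deep intragenic regions 7.07% (6.47 to 7.73) lay within 1 kb of an end of a non-coding gene. The share was 14.3% between genes, a difference of -7.25 points (-8.36 to -6.15).

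The sequence at these internal start sites could be read. In all, 338 RefSeq windows of 300 bases (250 before a start and 50 after it, GRCh38.p14) lay wholly inside a deep intragenic region, in 273 regions and for 289 genes. The AP-1 motif TGANTCA, which reads the same on both strands, was found in 55 of the 338 windows (16.3%, 12.7 to 20.6), against 7.67% of all 33725 windows. Among windows of long non-coding RNA genes it was found in 26 of 101 (25.7%, 18.2 to 35.0). The share was 3.97% in the 529 such windows inside shared regions near gene ends, 30.1% in the 166 inside shared intergenic regions, and 10.3% in all 12569. Among protein-coding windows it was found in 29 of 237 (12.2%, 8.66 to 17.0), against 5.30% near gene ends and 6.08% of all 21156. The TEAD motif GGAATG (searched on both strands) was in 16.6% of the 338 windows (13.0 to 20.9) and 14.04% of all windows, and the 8-letter CRE motif TGACGTCA was in 4.73% (2.93 to 7.55) and 1.87%. The CRE share near gene ends was 5.09% of protein-coding and 4.73% of long non-coding RNA windows, beside 5.06% and 3.96% in deep intragenic regions. None of the 3 motifs contains another, although AP-1 and TEAD matches may overlap. Windows of alternative starts of 1 gene can share bases, and a match describes letters only, not a bound site.

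The windows below are the 2 of long non-coding RNA genes and the 2 of protein-coding genes whose regions had the highest PKM2-KD enrichment among windows with an AP-1 match. They are shown because they place the motif beside measured H3K27ac. Each reads 5′ to 3′ on the strand of its start, with the AP-1 motif in capitals.
DLGAP1-AS6, in DLGAP1, chr18:3652780-3653079, plus strand: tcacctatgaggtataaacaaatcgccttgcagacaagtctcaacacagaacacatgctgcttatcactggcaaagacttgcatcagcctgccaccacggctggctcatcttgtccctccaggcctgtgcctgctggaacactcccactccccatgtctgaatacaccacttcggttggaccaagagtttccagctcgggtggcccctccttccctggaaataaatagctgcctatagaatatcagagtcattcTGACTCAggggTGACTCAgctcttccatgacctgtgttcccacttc
LOC102723480, in BCAR3, chr1:93692901-93693200, plus strand: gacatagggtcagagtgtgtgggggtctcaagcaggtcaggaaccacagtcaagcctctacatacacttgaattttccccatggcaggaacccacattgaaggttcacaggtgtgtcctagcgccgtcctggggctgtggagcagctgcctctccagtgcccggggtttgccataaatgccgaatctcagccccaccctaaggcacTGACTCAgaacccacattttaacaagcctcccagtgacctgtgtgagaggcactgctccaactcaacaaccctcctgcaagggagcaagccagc
ZBTB38, chr3:141368254-141368553, plus strand: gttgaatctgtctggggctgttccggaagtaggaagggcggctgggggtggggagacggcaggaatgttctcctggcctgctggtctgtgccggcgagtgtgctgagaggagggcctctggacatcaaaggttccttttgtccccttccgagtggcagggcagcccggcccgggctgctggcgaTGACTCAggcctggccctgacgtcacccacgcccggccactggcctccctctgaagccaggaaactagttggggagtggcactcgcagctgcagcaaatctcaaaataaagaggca
SH3BP4, chr2:234981124-234981423, plus strand: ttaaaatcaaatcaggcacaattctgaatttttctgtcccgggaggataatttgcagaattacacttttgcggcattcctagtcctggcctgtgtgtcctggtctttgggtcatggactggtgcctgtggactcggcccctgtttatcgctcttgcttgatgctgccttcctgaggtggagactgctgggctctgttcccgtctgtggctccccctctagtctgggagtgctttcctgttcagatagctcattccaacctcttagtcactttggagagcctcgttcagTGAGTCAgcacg

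In the region at DLGAP1-AS6 the pileup of fragments at the H3K27ac summit was 203 in NC and 307 in PKM2-KD, and its window held 2 AP-1 matches. At LOC102723480 the heights were 143 and 250 fragments. At the internal start of ZBTB38, a zinc finger transcription factor, they were 246 and 241. At that of SH3BP4, which acts in receptor endocytosis, they were 130 and 210. The region at DLGAP1-AS6 also overlapped an H3T11ph region of NC, and that at ZBTB38 an H3T11ph region of PKM2-KD.

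Deep intragenic regions overlapped 8 microRNA genes, of the 755 that lay inside a protein-coding span and more than 5 kb from its ends. The mature sequences of 7 are in the RefSeq table used here. They are shown because the marked region covers the DNA that encodes them, with the seed (bases 2 to 8) in capitals, and no seed was shared by any pair.
hsa-miR-7845-5p, in KLF7: aAGGGACAgggagggucgugg
hsa-miR-583, in CAST: cAAAGAGGaaggucccauuac
hsa-miR-3165, in NUMA1: aGGUGGAUgcaaugugaccuca
hsa-miR-4505, in MIDEAS: aGGCUGGGcugggacgga
hsa-miR-1469, in NR2F2: cUCGGCGCggggcgcgggcucc
hsa-miR-4519, in BCL7C: cAGCAGUGcgcagggcug
hsa-miR-4741, in RBBP8: cGGGCUGUccggaggggucggcu

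The eighth microRNA gene, MIR6876 in DOCK5, is named only. The KLF7 region, at chr2:207166131-207167479, had heights of 176 fragments in NC and 129 in PKM2-KD, and its summit lay 7 bp from the middle of the mature miR-7845-5p sequence. The CAST region reached 151 and 163 fragments and the NUMA1 region 79 and 74. The DOCK5 region reached 57 in NC and 123 in PKM2-KD, and overlapped H3T11ph regions of both NC and PKM2-KD. The MIDEAS, BCL7C and RBBP8 regions were lower, at 25 to 46 fragments in NC and 34 to 46 in PKM2-KD. The NR2F2 region began within the sequence of miR-1469, so it covered part of it. A RefSeq start site of a protein-coding or long non-coding RNA gene lay inside the KLF7, NR2F2, BCL7C and RBBP8 regions. The mark there cannot be assigned to the microRNA gene alone. The DOCK5 region is on chromosome 8, whose start sites were not used, so it was not checked.

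The height of H3K27ac in these regions was close to that in the other shared regions. Height is the pileup at the summit, in fragments, recovered from the deposited fold and p-value, and enrichment is that height divided by the commonest background of the same library (0.835 fragments in NC and 0.845 in PKM2-KD). The median height was 38 fragments in NC (quartiles 23 and 68) and 43 in PKM2-KD (26 and 74). The median enrichment was 45.5 in NC and 50.9 in PKM2-KD, against 39.5 and 48.5 within 1 kb of gene ends, and 46.7 and 50.9 between genes. The median width was 808 bp (602 to 1193) in PKM2-KD and 602.5 bp (391 to 984) in NC.

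Summits of both libraries lay close together. The median distance between them was 84 bp, and 54.4% of the regions had both summits within 100 bp, 68.6% within 200 bp and 88.8% within 500 bp. A single NC region was overlapped by 5793 of them (90.6%), and NC regions covered a median of 73.4% of the width. The NC summit lay inside the PKM2-KD region for 5819 (91.0%). For the other 573 the NC height belonged to a summit beyond the region's edge, as where 1 wide NC region spanned neighbouring PKM2-KD regions. In all 473 regions shared an NC region with another.

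Between the 2 libraries the median log2 ratio of enrichment, PKM2-KD over NC, was 0.16 (quartiles -0.32 and 0.63), a fold of 1.118. It was 0.31 near gene ends, 0.18 between genes and 0.21 over all 18990 shared regions. Enrichment was over 2-fold higher in PKM2-KD in 756 deep intragenic regions (11.8%), beside 11.9% of all shared regions. It was over 2-fold lower in 421 (6.59%), beside 5.53% of all shared regions and 2.89% near gene ends. With the NC summit inside the region, a condition added after the data were seen, the median was 0.20, and 12.6% were over 2-fold higher and 4.06% over 2-fold lower. These shares stood beside 12.4% and 3.60% of all shared regions. Read from the deposited fold, the median log2 ratio was 0.61. The H3K27ac NC values had been scaled by 0.521 before the fold was taken, and the fold adds 1 to height and background, which lowers the NC fold by its construction. Of the 573 regions with the NC summit outside, 165 (28.8%) were higher in PKM2-KD, against 3604 (61.9%) of those with it inside. The H3K27ac lists were called in different forms, with 79.3% of NC regions and 1.19% of PKM2-KD regions at the narrowest width, so the knockdown and the calling cannot be told apart in these ratios.

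**Figure D1:**
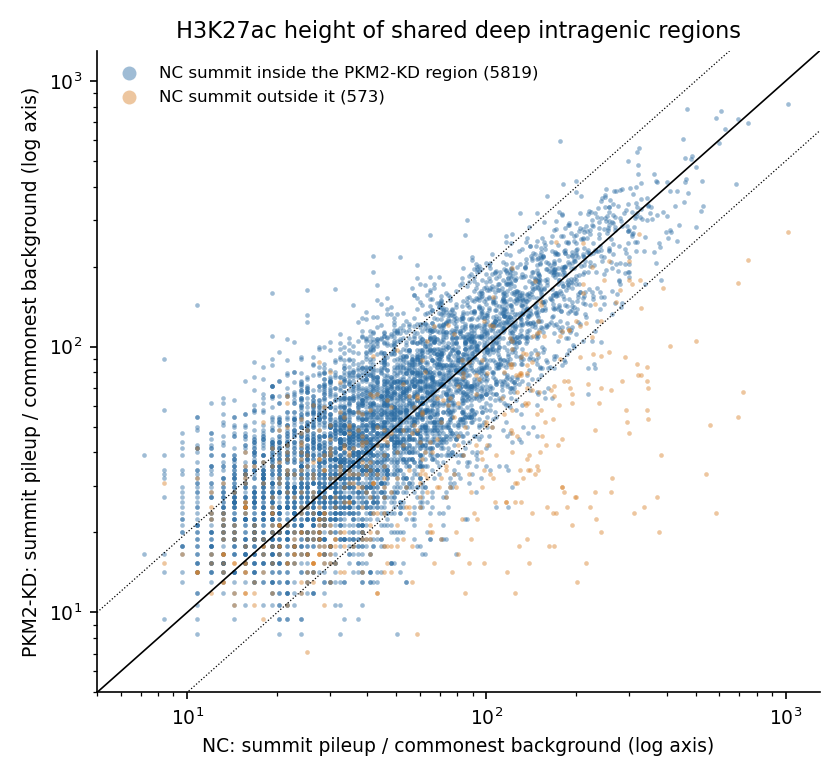
H3K27ac summit enrichment (pileup over the commonest background, log axes) of the 6392 deep intragenic regions in NC and PKM2-KD, 1 point per region, with the line of equal values and dotted lines at 2-fold. Points follow the diagonal, and of the 573 regions whose NC summit lay outside the region (orange) 165 were higher in PKM2-KD.

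The tallest region lay in DST, the gene of the cytoskeletal linker dystonin. At chr6:56712956-56714150 it reached 848 fragments in NC and 695 in PKM2-KD, with summits 12 bp apart. The next highest in PKM2-KD were regions of MICAL2, an actin-oxidising enzyme (392 and 662 fragments), ARHGAP32 (506 and 649), MME, the membrane peptidase neprilysin (488 and 613), and CUBN, the receptor cubilin (579 and 610). Counting error puts the log2 ratio of the CUBN region between -0.11 and 0.23, and that of the MICAL2 region between 0.56 and 0.92. The background of the MICAL2 region was 44.2 times the commonest one in PKM2-KD and 46.0 times in NC. In ARHGAP32 it was 13.6 times in PKM2-KD and 5.66 times in NC. In PKM2-KD it was 2.27 times in DST and 1.00 times in CUBN. The deposited folds of ARHGAP32 went the other way from its heights, 76.4 in NC and 52.1 in PKM2-KD. Those of DST did too, 221.4 in NC and 238.9 in PKM2-KD. In NC the next highest after DST were APBB1IP, a partner of the GTPase Rap1, with 626 fragments, and CFLAR, a regulator of caspase-8, with 602. The CFLAR summit of NC lay 1956 bp from that of PKM2-KD and outside the deep intragenic region, whose own height in PKM2-KD was 57 fragments.

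Some ratios compared summits that were not the same. The 5 lowest log2 ratios among the 4840 regions with at least 20 fragments in both libraries were in MME (-4.62), DLGAP1 (-4.03), TBC1D2 (-3.77), CYRIB (-3.75) and UBASH3B (-3.72). In each of these 5 the NC summit lay outside the PKM2-KD region, in an NC region of 2071 to 4699 bp. The summits of the libraries lay between 696 and 1934 bp apart. The region of MME had 20 fragments in PKM2-KD beside an NC height of 488, which is also the NC height of the tall MME region above.

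With the NC summit inside, a condition set after these values were seen, the 5 lowest were in POLE2, a subunit of DNA polymerase epsilon, POLQ, DNA polymerase theta, EGFR, SEMA5A, a semaphorin, and ESRRG, an orphan nuclear receptor. The ESRRG region, at chr1:216902751-216903822, had 182 fragments in NC and 56 in PKM2-KD at the same summit base, a log2 ratio of -1.72 (counting interval -2.18 to -1.28). The POLQ region had 90 and 21 fragments with summits 9 bp apart (-2.12, -2.88 to -1.42). The POLE2 region had 99 and 21 (-2.25, -3.01 to -1.56). Local background was 1.00 times the commonest in both libraries at ESRRG and at POLQ.

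The 5 highest ratios were in TTC7A, DNAH5, the shared span of RANBP2 and SH3RF3, ADORA2B and ARSG. ARSG, which encodes a lysosomal sulfatase, had 21 fragments in NC and 105 in PKM2-KD with summits 13 bp apart (log2 ratio 2.31, 1.62 to 3.06) and 1 local background in both, 4.12 times the commonest. DNAH5, an axonemal dynein, had 26 and 139 fragments (2.40, 1.79 to 3.07). In the RANBP2 and SH3RF3 region and in that of ADORA2B, an adenosine receptor, the local background was 24.9 and 27.2 times the commonest in PKM2-KD and 1.00 times in NC. In TTC7A, DNAH5, ADORA2B and the RANBP2 and SH3RF3 region the summits of the libraries lay between 452 and 1205 bp apart. In the last 2 regions the deposited folds went the other way, 13.4 in NC and 8.44 in PKM2-KD for RANBP2 and SH3RF3, and 8.32 and 4.68 for ADORA2B.

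H3T11ph and NONO were not used to choose the regions. An H3T11ph region of NC overlapped 773 deep intragenic regions, or 12.1% (11.3 to 12.9), beside 15.9% of all shared regions. The share was 19.7% near gene ends and 17.0% between genes, which left the deep intragenic share lower by -7.60 points (-8.97 to -6.24) and -4.90 points (-6.16 to -3.64). An H3T11ph region of PKM2-KD overlapped 1111, or 17.4% (16.5 to 18.3), beside 19.4% of all shared regions. The difference was -4.24 points (-5.71 to -2.77) from gene ends and -2.33 points (-3.72 to -0.94) from intergenic regions. Among regions with no start site within 1 kb, a restriction chosen after seeing the data, the difference from gene ends was -2.59 points (-5.60 to 0.17), an interval that holds 0. Regions are not replicates of a condition, and the intervals cover counting error only.

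More deep intragenic regions overlapped H3T11ph after PKM2 knockdown than in NC, although the PKM2-KD list was the shorter. H3T11ph of both libraries overlapped 293, NC alone 480 and PKM2-KD alone 818. Of the 41692 H3T11ph NC regions, 811 (1.95%) lay on a deep intragenic region, and of the 35720 PKM2-KD regions 1211 (3.39%) did. The depth recovered for these libraries was 3.35 and 3.42 fragments per kb. Over the shared regions near gene ends the counts were 614 for NC alone and 710 for PKM2-KD alone. Between genes they were 590 and 745, so the direction was not particular to deep intragenic regions. With 1 library each, this difference has no replicate check. All these regions were taken from the H3K27ac PKM2-KD list, with a larger minimum width than that asked of NC. The part of that choice in these counts was not tested.

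NONO of NC overlapped 1014 deep intragenic regions, or 15.9% (14.99 to 16.8), beside 17.4% of all shared regions. This was -6.30 points (-7.76 to -4.84) from gene ends, and within counting error of the 14.8% between genes (difference 1.05 points, -0.24 to 2.33). With an overlap of at least 50% asked, that difference was 1.53 points (0.29 to 2.76), and its interval no longer held 0. NONO of NONO-KD overlapped 309, or 4.83% (4.33 to 5.39), beside 6.06% of all shared regions, -1.59 points (-2.46 to -0.74) from gene ends and -2.47 points (-3.33 to -1.62) from intergenic regions. NONO of NC alone overlapped 910, NONO-KD alone 205 and both 104. The NONO lists of NC and NONO-KD were called in different forms (94.6% and 2.05% of regions at the narrowest width), so the knockdown and the calling cannot be told apart. None of the 4 lists overlapped 4037 regions (63.2%), and all 4 overlapped 26.

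**Figure D2:**
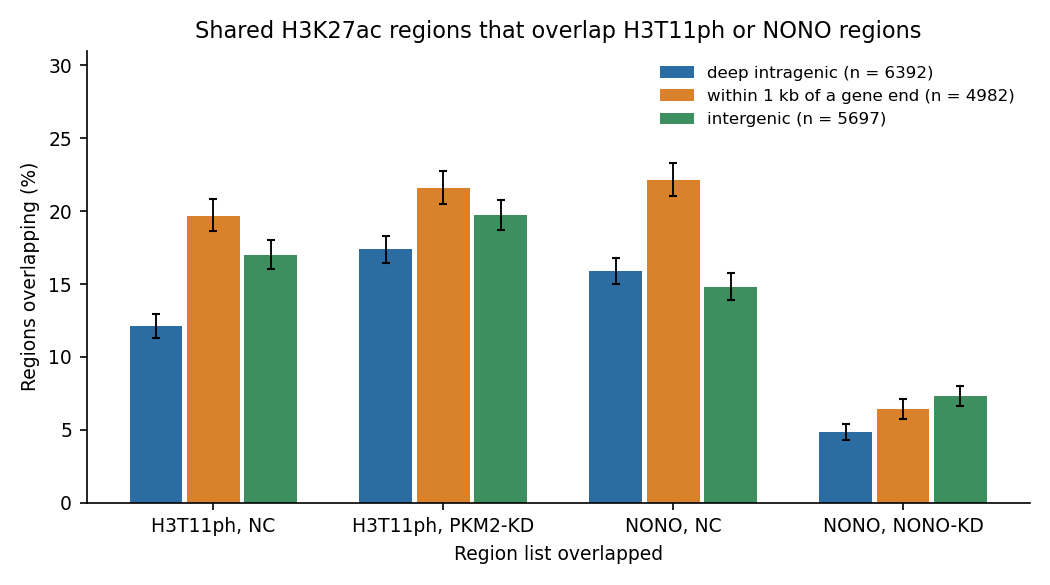
Share of shared H3K27ac regions (%) that overlapped a region of each H3T11ph or NONO list, by class, with bars for the share and whiskers for the 95% Wilson interval. Deep intragenic regions are below those near gene ends in all 4 lists, and lie at 12.1% and 17.4% for H3T11ph in NC and PKM2-KD.

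The share overlapped by H3T11ph was higher among deep intragenic regions with stronger H3K27ac. The regions were divided by -log10 p in PKM2-KD into 4 equal groups of 1598. In the weakest group 7.95% (6.72 to 9.38) overlapped H3T11ph of NC and 10.1% H3T11ph of PKM2-KD, and in the strongest group 19.0% (17.2 to 21.0) and 28.0%. For NONO of NC the shares were 13.3% and 19.7%, and for NONO-KD 4.82% and 5.63%, whose intervals (3.87 to 5.98 and 4.60 to 6.87) overlap. The median width rose over these groups from 640 to 1142 bp. The part of width in these shares was not tested. A local background of at least 2 times the commonest marked 29.3% of deep intragenic regions, 46.5% of those near gene ends and 32.6% between genes. Among those below it, a restriction chosen after seeing the data, H3T11ph overlapped 9.0% in NC and 12.6% in PKM2-KD. The difference from intergenic regions in PKM2-KD was then -1.14 points (-2.60 to 0.31), that of NONO-KD from gene ends -0.19 points (-1.11 to 0.68) and that of NONO-KD from intergenic regions -0.83 points (-1.68 to 0.00385). All 3 intervals hold 0, unlike those over all regions.

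The H3T11ph regions were narrow, with a median of 145 bp on deep intragenic regions in NC and 135 bp in PKM2-KD, and the NONO NC regions were 269 bp. The H3T11ph summit lay a median of 131 bp from the H3K27ac summit in NC and 133 bp in PKM2-KD. Regions overlapped by H3T11ph in both libraries had a median H3K27ac enrichment of 87.4 in NC and 104.2 in PKM2-KD, against 40.7 and 44.996 in regions overlapped by neither. Of the former 61.8% had a raised background, against 23.8% of the latter.

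The 10 deep intragenic regions with the strongest H3T11ph in both libraries were in MAP3K20, PKD1L1, ZMYND8, PHF20, TRIP13, MET, ARHGAP35, LRMDA, ZMAT3 and ADK. MAP3K20 encodes a stress kinase, and its region at chr2:173120752-173121879 had an H3T11ph fold of 74.1 in NC and 66.4 in PKM2-KD. ZMYND8 and PHF20 are chromatin readers, with folds of 49.6 and 69.4, and of 59.1 and 48.8. The region of MET, the receptor of hepatocyte growth factor, lay at chr7:116716698-116717378 with folds of 47.5 and 67.1, and its H3K27ac height was 79 fragments in NC and 42 in PKM2-KD. In none of the 10 was the H3K27ac log2 ratio beyond 1 in size.

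NONO and H3T11ph of NC overlapped the same deep intragenic region in 222 cases. The 10 with the highest folds were in TOX2, MYO9B, ANXA3, PKD1L1, SKI, PLCB3, EPB41L4B, LDLRAD3, FAM107B and ST3GAL3. MYO9B, an unconventional myosin, had a NONO fold of 179.0 and an H3T11ph fold of 75.5 in NC, and no NONO-KD region. ANXA3, an annexin, had folds of 126.4 and 68.5. Only PLCB3, a phospholipase, and ST3GAL3, a sialyltransferase, of these 10 also overlapped a NONO-KD region. The SKI region, in the gene of a repressor of TGF-beta signalling, had 41 fragments of H3K27ac in NC and 43 in PKM2-KD.

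The deep intragenic regions fell in 2486 protein-coding genes, 18.0% of the 13798 with a span over 10 kb. Of these, 1217 held 1 region, 347 held 5 or more and 83 held 10 or more. The 83 held 1171 regions (18.3%). Density was 6.15 regions per Mb of sequence inside genes and over 5 kb from their ends, against 3.71 per Mb for the shared regions between genes. Chromosome 10 had the highest density, 10.2 per Mb, and chromosome 4 the lowest, 3.77.

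Among hosts the 11 genes with the most regions were DST (37), EXT1 (29), FRMD4A (28), EGFR (27), CELF2 and PTPRM (22 each), and LPP, PALM2AKAP2, PRKCA, STARD13 and TRIO (21 each), where 5 genes tied for the last places. Several act in adhesion or the cytoskeleton: DST as a linker of filaments, LPP at focal adhesions, and PTPRM as a phosphatase of cell contacts. EXT1 makes heparan sulfate, EGFR is the receptor of epidermal growth factor, and PRKCA is protein kinase C alpha. EGFR was the densest of the 11, with 14.8 regions per 100 kb, against 7.60 in DST and 2.55 in CELF2. Long genes were not denser: genes of 100 to 200 kb held 7.85 regions per Mb, those of 500 to 1000 kb 4.13 and those over 1000 kb 1.45.

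**Figure D3:**
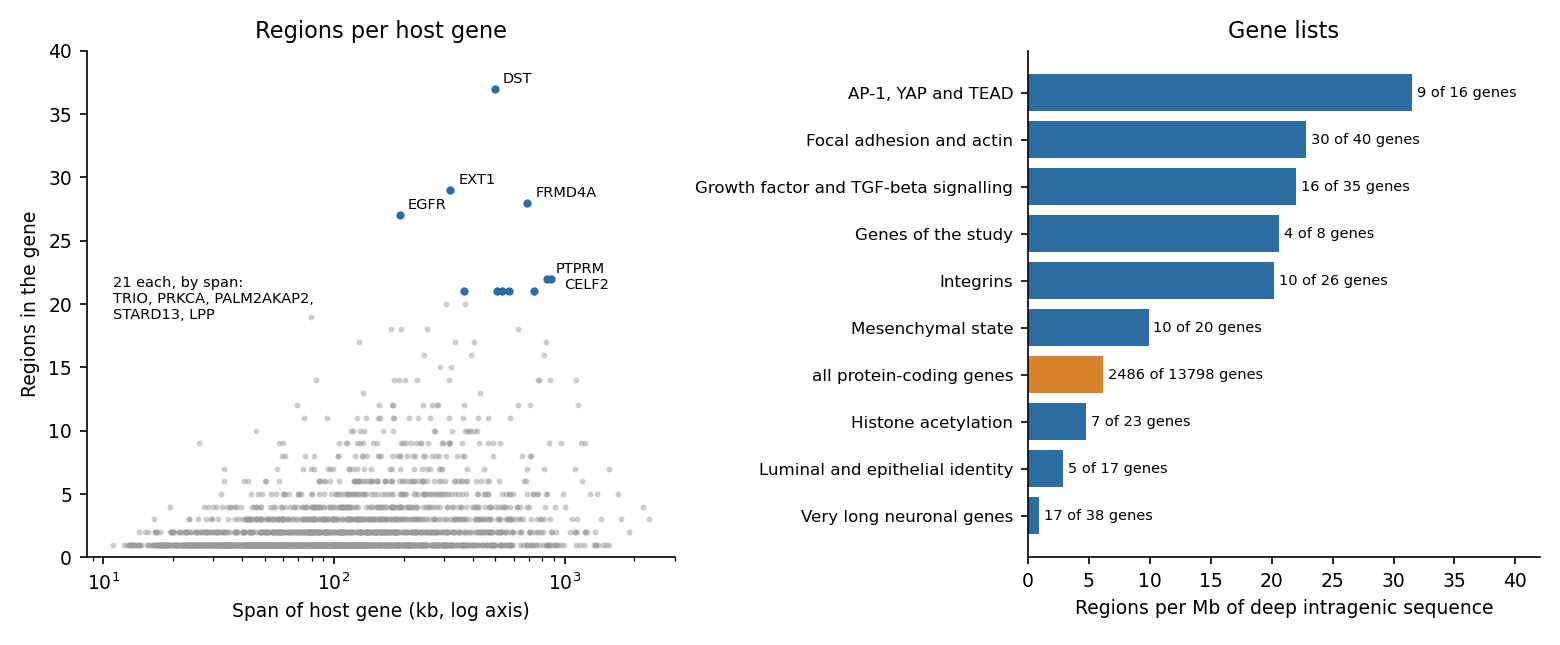
Left, the number of deep intragenic regions in each host gene against its span (kb, log axis), with the 11 leading genes in blue. Right, regions per Mb of deep intragenic sequence in each gene list, with the number of host genes of those over 10 kb. DST leads with 37 regions, and 6 lists lie above the 6.15 per Mb of all protein-coding genes (orange).

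The 27 regions of EGFR lay between 32.0 and 167.4 kb from its 5′ end, and 16 formed a stretch of 36.9 kb at chr7:55050264-55087203. The tallest EGFR region, at chr7:55132377-55134584, reached 405 fragments in NC and 440 in PKM2-KD. It overlapped H3T11ph and NONO regions of all 4 lists. A region at chr7:55073766-55074514 reached 287 and 306 fragments. The log2 ratio was above 0 in 16 of the 27, and in 16 of the 21 with the NC summit inside, whose median was 0.22. One of those 21, at chr7:55160625-55161460, went from 102 fragments in NC to 25 in PKM2-KD (-2.04, -2.74 to -1.40). Over all deep intragenic regions 59.0% had a ratio above 0, and 61.9% of those with the NC summit inside.

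In DST the 37 regions spread over 62.9 to 411.8 kb from the 5′ end, and the median log2 ratio was 0.01 over the 32 with the NC summit inside. In LPP the median was -0.02 over all 21 regions and 0.34 over the 18 with the NC summit inside, so the sign turned with that condition. The tallest LPP region in PKM2-KD, at chr3:188271197-188273562, had 252 fragments in NC and 333 in PKM2-KD. The gene maps show the heights of both libraries along each gene.

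**Figure D4:**
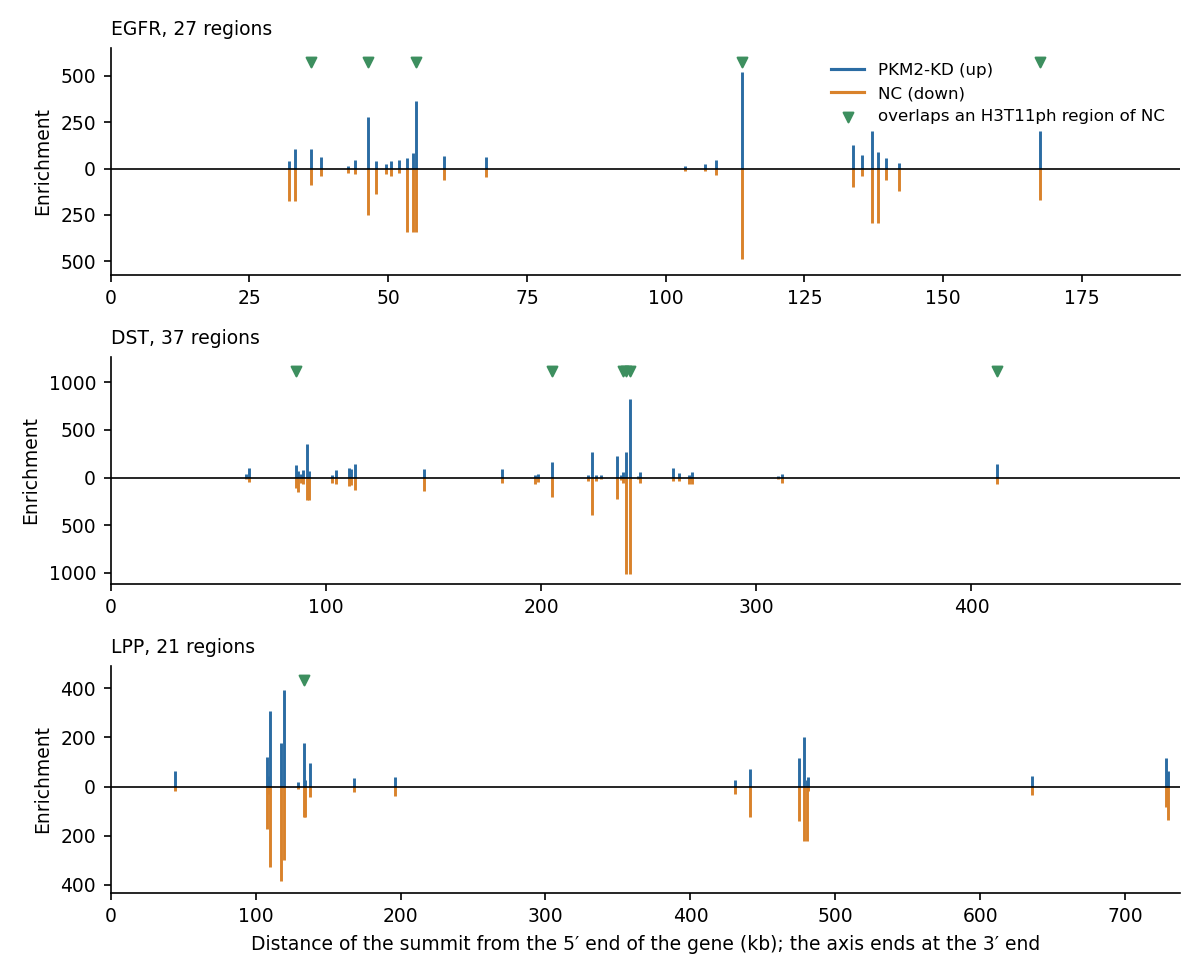
Deep intragenic regions along EGFR, DST and LPP by distance of the summit from the 5′ end (kb), with H3K27ac enrichment in PKM2-KD drawn upward and that of the overlapping NC region downward, so 1 wide NC region can appear at neighbouring positions. Triangles mark an overlap with an H3T11ph region of NC, which 5 regions of EGFR, 6 of DST and 1 of LPP had.

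Across the 83 genes with 10 or more regions the median log2 ratio ran from -0.46 to 0.85, with 56 above 0. With the NC summit inside it ran from -0.44 to 0.95, with 65 above 0. The genes named next were chosen after these values were seen. The highest was MICAL2, where 16 of 17 such regions were higher in PKM2-KD, beside 61.9% of all such deep intragenic regions. NRP1, a co-receptor of semaphorins and VEGF, had 7 of 8 higher (median 0.82), MYLK, the myosin light chain kinase, 8 of 9 (0.81), and RPTOR, a subunit of mTORC1, 9 of 11 (0.70). The lowest were NRG1, a ligand of ERBB receptors (-0.44, 5 of 12 higher), and MACF1, a linker of microtubules and actin (-0.34, 6 of 15). The median background in these regions was 2.42 times the commonest in MICAL2 and 2.57 times in MYLK, against 1.03 times in NRP1.

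Genes of adhesion and of AP-1, YAP and TEAD held the regions more densely than protein-coding genes as a whole. The lists were chosen with earlier results of these data known, so these densities are a description and not independent support. Of the 16 genes over 10 kb in the AP-1, YAP and TEAD list, 9 were hosts, with 37 regions at 31.6 per Mb, against 6.15 per Mb and 18.0% hosts over all genes. TEAD1 held 10, WWTR1 (TAZ) 8, YAP1 6 and AMOTL1 4. The focal adhesion and actin list had 30 of 40 hosts and 158 regions at 22.8 per Mb. Besides LPP it was led by MICAL2 (18), BCAR3, an adaptor of focal adhesions (15), and ACTN4, alpha-actinin (14), whose 19.3 regions per 100 kb exceeded those of EGFR. Integrins had 10 of 26 hosts at 20.2 per Mb, led by ITGA2 (9), ITGB5 (8) and ITGA6 (7). The growth factor and TGF-beta list had 16 of 35 hosts and 90 regions at 21.98 per Mb. It was led by EGFR (27), PDGFC (11), and IGF1R and SMAD3 (9 each).

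The mesenchymal list had 10 of 20 hosts at 9.90 per Mb, with 4 regions each in COL5A2 and LOXL2. Histone acetylation genes had 7 of 23 hosts at 4.78 per Mb, among them the deacetylase HDAC4 (4). Luminal and epithelial genes had 5 of 17 hosts with 7 regions at 2.90 per Mb, 3 in the prolactin receptor PRLR and 1 each in ERBB4, ESR1, KRT8 and SPDEF. Very long neuronal genes had 17 of 38 hosts, and the lowest density, 0.926 per Mb, led by CDH13 (9). The lists differ in gene length, and no test between them was run.

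Within the lists, the ratio between libraries was described in the same way. The median log2 ratio over the regions of a list was highest in histone acetylation genes (0.66 over 16 regions) and in integrins (0.43 over 38), and -0.17 over the 7 luminal regions, beside 0.16 over all deep intragenic regions. In ITGB5 it was 0.87, with 7 of 8 regions higher in PKM2-KD, and in SMAD3, a transducer of TGF-beta signals, 0.89, with 9 of 9 higher. In PDGFC it was -0.11 (5 of 11 higher) and in MET -0.16 (3 of 7). Over all deep intragenic regions 3769 (59.0%) were higher in PKM2-KD, and regions of 1 gene are not replicates.

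Of the genes the study followed, 8 spanned over 10 kb and 4 held a deep intragenic region. PKM, which encodes PKM2, had 1 at chr15:72222327-72222875, 8.97 kb from its 5′ end, with 51 fragments in NC and 82 in PKM2-KD. VDAC1, a mitochondrial channel, had 1 with 18 and 33 fragments, 109.5 kb from the outer 5′ end of its span. That VDAC1 region covered RefSeq start windows of VDAC1 itself, so it lay at internal starts of the gene. FERMT2, the integrin activator kindlin-2, had 3, the tallest at chr14:52906017-52906550 with 97 and 173 fragments. MATN2, a matrix protein, had 3, with heights of 33, 24 and 66 fragments in NC and 38, 25 and 14 in PKM2-KD. No H3T11ph region of either library overlapped any of these 8, beside 75.1% of all deep intragenic regions that neither list overlapped, and 1 of the MATN2 regions overlapped a NONO region of NC.

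Along the host gene the regions leaned slightly to the 5′ side. Of 5398 pairs of a region and a host with a known strand, 2850 (52.8%, 51.5 to 54.1) were nearer the 5′ end. Density was 7.33 per Mb at 5 to 10 kb from the 5′ end (6.599 to 8.13) and 5.70 at the same distance from the 3′ end (5.05 to 6.41). It was 7.83 at 20 to 50 kb from the 5′ end and fell to 4.14 beyond 200 kb (3.89 to 4.41). From 50 to 100 kb it was 7.54 (7.13 to 7.97) from the 3′ end and 6.89 (6.49 to 7.30) from the 5′ end. The intervals at 50 to 100 kb overlap. At 100 to 200 kb density was 5.81 from the 5′ end (5.44 to 6.19) and 7.04 from the 3′ end (6.64 to 7.47). Beyond 200 kb from the 3′ end it was 4.03 (3.78 to 4.29), and these 2 intervals overlap. Strand was known for 2042 of the 2486 hosts. The intervals count each region as independent, although 32.2% of gaps between neighbouring regions were under 5 kb.

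**Figure D5:**
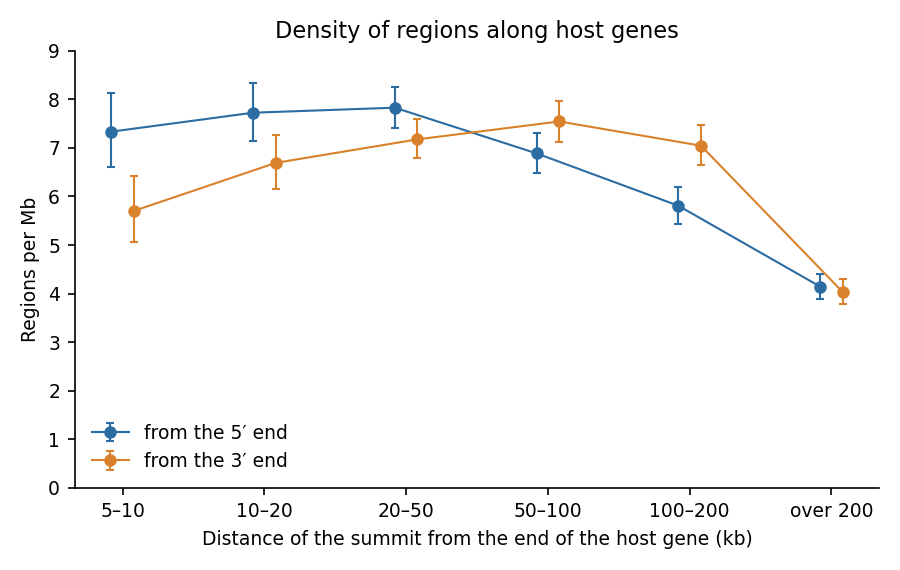
Density of deep intragenic regions (per Mb of sequence inside genes and over 5 kb from gene ends) by distance of the summit from the 5′ and the 3′ end of the host gene, with 95% Poisson intervals. Near the ends the 5′ side is higher, 7.33 against 5.70 per Mb at 5 to 10 kb. At 100 to 200 kb the 3′ side is higher, at 50 to 100 kb the intervals overlap, and beyond 200 kb both are near 4 per Mb.

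Neighbouring deep intragenic regions were a median of 30.1 kb apart, and 32.2% of the gaps were under 5 kb. Joined over gaps of up to 12.5 kb they formed 3809 stretches, of which 2497 were single regions and 158 held 5 or more (1049 regions, 16.4%). The largest lay in TRAM2, with 19 regions over 64.2 kb at chr6:52503245-52567432. Its median enrichment was 43.1 in NC and 65.1 in PKM2-KD, and 15 of 19 were higher in PKM2-KD. Taken region by region, its median log2 ratio was 0.18, beside 0.16 over all deep intragenic regions. EGFR and ADAMTS12, a metalloproteinase, followed with 16 each, and FOXP1 and ETS1, both transcription factors, held stretches of 12. Over all deep intragenic regions 59.0% were higher in PKM2-KD.

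The values on both sides of each limit that chose the regions were as follows. The 100 regions just above the lower width limit (452 to 460 bp) had a median enrichment of 33.2 in PKM2-KD, and the 100 just below it (443 to 451 bp) 26.1. Around the upper limit the medians were 123.7 inside and 132.6 outside, around the 5 kb distance 47.4 inside and 57.4 outside, and around the NC width limit 33.7 and 28.4. A further 3206 deep intragenic regions of the same widths in PKM2-KD had no NC region, or only a narrower one.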

How the data were processed

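The deposited lists hold 1 set of H3K27ac, H3T11ph or NONO regions per library (6 libraries, 1 per group). Per the submitters' processing notes, MACS2 2.1.1.20160309 and hg38 were used. The aligner, the control and the caller settings are not given in the sources used here. In the deposited lists each region has a score (10 times -log10 q), a fold of pileup over local background with 1 added to both, a -log10 p-value, a -log10 q-value, and a summit offset in bp, all as the authors' caller wrote them.

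From the deposited fold and p-value the pileup at the summit was recovered with a tolerance of 0.002, which matched 100% of both H3K27ac lists. Depth implied by the backgrounds was 7.46 and 7.47 fragments per kb for H3K27ac in NC and PKM2-KD, and sets the precision of each height. Gene spans and start windows came from the RefSeq table (GRCh38.p14). Overlap was at least 1 bp. Shares carry 95% Wilson intervals, their differences Newcombe intervals, and densities Poisson intervals, for counting error only. With 1 library per group no test between conditions was run. Chromosome X was left out, and start sites of chromosome 8 were not used.

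The members, gene lists and named genes were chosen with earlier results of these data known. Named were the 10 genes with the most regions (ties kept), the 5 highest and lowest regions by height and by ratio (at least 20 fragments in both libraries), up to 10 regions with the strongest H3T11ph or NONO overlap, the 4 leading hosts of each list, and microRNA genes. Some genes under this rule are not reported here. The steps were tested on simulated data. Python 3.11.15, pandas 2.3.3, NumPy 2.4.6, SciPy 1.17.1 and matplotlib 3.10.9 were used.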

Additional observations from a re-analysis of the deposited data

How the results depend on the processing

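Of 102 recomputed values with an interval, 76 stayed within the interval of the reported value, 21 moved beyond it, and 0 changed sign. For the other 5, all differences of overlap, the interval gained or lost 0. The 9 recomputed counts stayed within 1.5 times, with 4447 to 6182 regions against 6392 and 2052 to 2442 host genes against 2486. No paired analysis was possible because 1 library stood for every group. With -log10 q of at least 5, 11.3% of deep intragenic regions overlapped H3T11ph of NC, the difference from intergenic regions was -3.47 points for H3T11ph of NC and -1.39 for NONO-KD, the median enrichment was 55.7 in PKM2-KD and 50.3 in NC, the log2 ratio 0.0956, and the summit distance 75 bp. With an overlap of at least 50%, NONO of NC overlapped 14.2%, and its difference from intergenic regions became 1.53 points (0.29 to 2.76). The deposited fold gave 16.8 in PKM2-KD, 10.9 in NC and a log2 ratio of 0.61. The next alternatives were chosen after seeing the data. NC regions of at least 4 times the narrowest width gave 62.8, 58.7 and 0.13, and NC summits inside the region gave 53.3 in PKM2-KD and a ratio of 0.20. Without start sites within 1 kb, the difference from gene ends for H3T11ph of PKM2-KD was -2.59 points (-5.60 to 0.17). With a background below 2 times the commonest, overlap was 9.0% for H3T11ph of NC (-2.04 points from intergenic), 12.6% for H3T11ph of PKM2-KD (-1.14 from intergenic, -2.60 to 0.31), 12.7% for NONO of NC and 3.49% for NONO-KD (-0.19 from gene ends, -1.11 to 0.68, and -0.83 from intergenic, -1.68 to 0.00385), so these 3 differences were lost. The cause of these shifts was not tested, except that stricter settings keep taller regions by construction. With 1 library per group, depth and library cannot be told apart from condition.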
